A study of Homo sapiens with 27 samples.

Results

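The mitotic machinery of LS174T colorectal carcinoma cells was followed through 38 genes that act in G2 phase and in mitosis, chosen as a list of cyclins and CDK1 partners, mitotic kinases, checkpoint and anaphase genes, kinesin motors, kinetochore genes, spindle assembly factors, cytokinesis genes and chromosome genes. They are 38 of the 13471 genes tested, each read by the detected probe with the highest mean. The list was given by gene name. Cells carried a doxycycline-inducible mouse Snail1 with an HA tag (the SNAI1 line, 11 arrays), an inducible mouse Lef1 with an HA tag (the LEF1 line, 7 arrays) or no overexpressed gene (the control line, 9 arrays). Per the labels, doxycycline was used at 0.1 µg/ml and renewed after 48 h. The SNAI1 line had 2 arrays each at 0, 6, 48 and 96 h and 1 each at 3, 24 and 72 h. The LEF1 line had 2 each at 0, 6 and 72 h and 1 at 24 h. The control line had 2 each at 0 and 6 h and 1 each at 3, 24, 48, 72 and 96 h. The labels name 1 line per transgene, without saying whether it is a clone, or whether replicates were grown apart, so p-values measure the spread between these arrays, which may be technical.

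CDK1 with cyclin B starts mitosis, and CDC25 phosphatases switch that kinase on. Aurora and Polo-like kinases build the spindle together with kinesins, the spindle checkpoint holds the anaphase-promoting complex back until chromosomes attach, and the RhoA exchange factor ECT2 then positions the cleavage furrow. Transcription of these genes is periodic: FOXM1 and the B-MYB-MuvB complex raise it in G2, and the DREAM complex represses it in cells that leave the cycle. B-MYB-MuvB and DREAM bind through CHR elements near the start site, and NF-Y binds the CCAAT elements there. Cycling cells of the colonic crypt, and colorectal carcinoma cells, express the set.

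The promoters of 4 members are shown. ECT2, PTTG1 and CENPF are 3 of the members that passed the threshold in a comparison with the control line. CCNB2 is a well-studied carrier of CCAAT and CHR elements. Sequences are those of RefSeq on GRCh38.p14, 300 bases from 250 before to 50 after the gene start, on the gene's strand, which is + for all 4: CCNB2 at chr15:59104896-59105195, PTTG1 at chr5:160421605-160421904, CENPF at chr1:214602945-214603244 and ECT2 at chr3:172750476-172750775. Capitals mark CCAAT and the CHR core letters, TTTGAA and TTTAAA, on either strand.
CCNB2: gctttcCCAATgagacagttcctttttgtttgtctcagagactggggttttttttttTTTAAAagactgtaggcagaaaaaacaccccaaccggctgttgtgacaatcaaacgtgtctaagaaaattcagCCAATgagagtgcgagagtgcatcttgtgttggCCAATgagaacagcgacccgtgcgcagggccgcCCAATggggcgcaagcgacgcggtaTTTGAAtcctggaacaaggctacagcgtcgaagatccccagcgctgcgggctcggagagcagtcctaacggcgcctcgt
PTTG1: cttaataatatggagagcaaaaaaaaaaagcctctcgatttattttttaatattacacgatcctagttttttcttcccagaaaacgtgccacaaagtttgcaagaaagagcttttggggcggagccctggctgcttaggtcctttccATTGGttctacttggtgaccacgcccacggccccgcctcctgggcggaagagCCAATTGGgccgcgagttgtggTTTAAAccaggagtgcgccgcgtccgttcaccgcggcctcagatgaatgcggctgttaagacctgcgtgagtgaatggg
CENPF: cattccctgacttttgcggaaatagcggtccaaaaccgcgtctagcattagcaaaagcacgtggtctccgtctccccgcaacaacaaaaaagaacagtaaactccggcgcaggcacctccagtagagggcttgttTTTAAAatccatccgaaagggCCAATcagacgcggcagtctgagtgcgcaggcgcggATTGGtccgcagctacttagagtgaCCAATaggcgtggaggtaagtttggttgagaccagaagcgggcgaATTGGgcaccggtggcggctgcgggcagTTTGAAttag
ECT2: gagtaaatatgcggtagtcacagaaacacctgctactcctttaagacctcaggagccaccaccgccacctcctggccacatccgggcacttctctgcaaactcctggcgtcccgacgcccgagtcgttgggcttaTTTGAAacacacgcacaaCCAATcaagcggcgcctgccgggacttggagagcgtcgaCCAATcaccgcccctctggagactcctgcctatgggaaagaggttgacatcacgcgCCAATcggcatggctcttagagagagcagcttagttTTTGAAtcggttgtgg
CCNB2 and CENPF each hold 4 CCAAT, 1 TTTGAA and 1 TTTAAA. ECT2 holds 3 CCAAT and 2 TTTGAA. PTTG1 holds 3 CCAAT, 2 of which overlap on opposite strands as CCAATTGG, and 1 TTTAAA. The RefSeq table matched 31 of the 38 members, and FOXM1, AURKA, TTK, BUB3, UBE2C, BIRC5 and TPX2 were not matched. CCAAT on either strand lies in 25 of the 31 windows (80.65%), against 9747 of 27305 windows of all genes in that table (35.7%). One or the other CHR core lies in 25 of 31 (80.65%) against 6625 of 27305 (24.26%), and both kinds in 21 of 31 (67.74%) against 2592 of 27305 (9.49%). CCNB2 and ECT2, which fell late in the SNAI1 line, and CENPF, which did not pass the threshold there, all hold both kinds.

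The arrays fall into 2 sets by the form of their detection p-values. Set 1 holds 18 arrays, with 18241 to 19683 detected probes: the 11 arrays of the SNAI1 line and 7 control arrays. Set 2 holds 9 arrays, with 14766 to 15918: the 7 arrays of the LEF1 line, control 0 h replicate 2 and control 6 h replicate 1. The median of the members differed between the sets at 0 h in the control line: the arrays read 9.40 on the log2 scale for control 0 h replicate 2 and 10.17 for replicate 1, which is in set 1. At 6 h the control arrays were closer, with 9.76 for replicate 1 in set 2 and 9.88 for replicate 2 in set 1. Whether the gap at 0 h belongs to the set or to control 0 h replicate 2 was not tested. The model has a term for the set, which rests on the control arrays at 0 and 6 h alone. The LEF1 line has no control array at 72 h within its own set. Of the 12 colon epithelium markers 7 were detected on all 27 arrays and none was absent throughout. Of 10 markers of fibroblasts, endothelium, blood cells and liver, CD68 and ALB were detected on all 27 arrays and PDGFRB and PECAM1 on 0. All members except MKI67 were detected on all 27 arrays, 37 of 38. MKI67, the gene of the Ki-67 antigen, was detected on 15 and on 0 of the 7 LEF1 line arrays, so no level or change of it is given for that line. It was also not detected on control 0 h replicate 2, control 6 h replicate 1, the control 96 h array and both SNAI1 96 h arrays, so its differences from the control line at 72 and 96 h are not given.

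**Figure D1:**
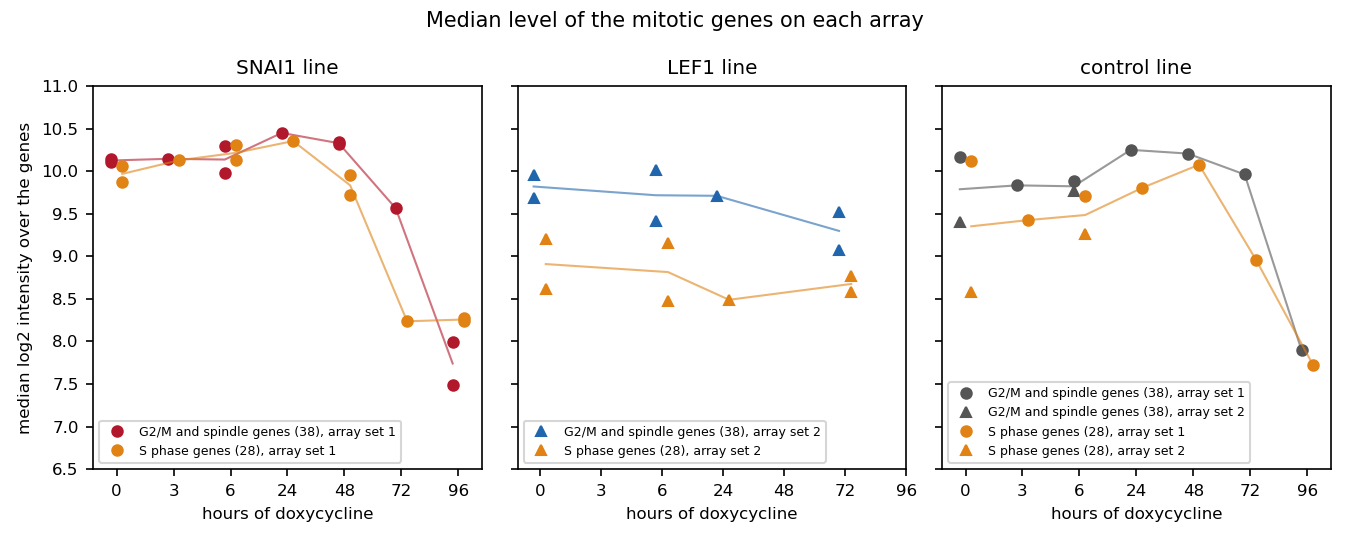
Each point is the median log2 intensity over the 38 genes, or over 28 S phase genes, on 1 array, with hours of doxycycline on an evenly spaced axis and lines through the means of each time. In the SNAI1 line the median of the 38 genes was 7.49 and 7.99 at 96 h, against 10.11 and 10.14 at 0 h, and the single control array at 96 h read 7.90.

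At 3 and 6 h no member passed the 5% threshold in the SNAI1 line against its own 0 h (0 of 38, with 0% of all genes called and 0 members at an unadjusted p under 0.05 in limma). The median change was 0.07 on the log2 scale. The largest rises were 0.30 for MKI67, 0.17 for KIF23 and 0.16 for PLK1, and the largest falls -0.11 for CENPA, -0.09 for TOP2A and -0.08 for NUSAP1. CCNB1 changed by 0.12, CDK1 by 0.13, FOXM1 by 0.07, AURKA by -0.01 and CDC20 by 0.00. When the SNAI1 line was set against control arrays of 3 and 6 h, 0 members passed, with 0.0891% of all genes called (0.0148% higher and 0.0742% lower) and 3 members at an unadjusted p under 0.05. The largest differences there were 0.75 for MKI67, which 1 of the 3 control arrays did not detect, 0.45 for BIRC5 and 0.44 for CDC25C, and the smallest -0.02 for ECT2, 0.00 for CDK1 and 0.01 for CKS2. Relative to the control line's own change 0 passed (0% of all genes called, 0 at an unadjusted p under 0.05), with 0.38 for CDC25C, 0.33 for KIF2C and 0.32 for TTK at the high end and -0.35 for CKS2, -0.21 for BUB1B and -0.19 for ANLN at the low end. Before induction, at 0 h, 0 members differed between the SNAI1 and control lines (0% of all genes, 0 at an unadjusted p under 0.05). All 38 differences were above 0 with the array set term, with a median of 0.17, but within array set 1 26 were above and 12 below 0, with a median of 0.06. BUB1B (0.52), MAD2L1 (0.47) and KIF11 (0.46) had the largest and TTK (0.01), HMMR (0.03) and BUB3 (0.05) the smallest. In the control line at 3 and 6 h 0 members passed (0% of all genes, 0 at an unadjusted p under 0.05), with a median of -0.01 and values from -0.35 for CDC25C, -0.28 for BUB1 and -0.24 for CDC20 to 0.27 for ANLN, 0.28 for KIF11 and 0.28 for CKS2. The sets went opposite ways there: within set 1, 32 of 38 changes were negative at 3 h (median -0.20) and 33 at 6 h (median -0.15), while within set 2, 31 were positive at 6 h (median 0.30). KIF11 was at -0.32 and -0.05 at 3 and 6 h in set 1 and at 1.20 at 6 h in set 2.

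At 24 and 48 h few mitotic genes of the SNAI1 line differed from 0 h past the threshold. CENPF was the 1 of 38 members that passed, with 9.69% of all genes called, 4.28% higher and 5.42% lower. CENPF encodes a large coiled-coil protein of the outer kinetochore. Its log2 intensity in the SNAI1 line was 8.55 and 8.61 at 0 h, 8.67 at 3 h, 8.66 and 8.56 at 6 h, 9.33 at 24 h, 9.59 and 9.33 at 48 h, 8.80 at 72 h, and 7.40 and 7.68 at 96 h. The 3 arrays at 24 and 48 h lay above all others of that line. In the control line it read 8.39 and 7.30 at 0 h, 8.09 at 3 h, 7.44 and 8.29 at 6 h, 8.61 at 24 h, 8.40 at 48 h, 8.15 at 72 h and 6.75 at 96 h. The change in the SNAI1 line was 0.82 (SE 0.18, adjusted p = 0.0129 in limma). It passed neither without SNAI1 0 h replicate 1 nor without replicate 2, which leaves 0 members called, and 2 passed without any one of the 0 h and 6 h arrays of the control line.

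The direction was shared by 36 of the 38 members, with a median of 0.28, against a median of 0.04 over all genes tested. Among the motors, which slide and depolymerise spindle microtubules, KIF4A changed by 0.68 (SE 0.21, adjusted p = 0.0696 in limma). FOXM1, the transcription factor of the set, changed by 0.61, TOP2A, the decatenating topoisomerase, by 0.47, CDK1 by 0.34, AURKA by 0.25, MKI67 by 0.23, CCNB1 by 0.21, CDC20 by 0.10 and PLK1 by 0.06. None of these passed. The members below 0 h were ECT2 (-0.42, SE 0.18, adjusted p = 0.188 in limma) and the microtubule bundler PRC1 (-0.01). Against the control line at 24 and 48 h CENPF passed again (0.89, SE 0.18, adjusted p = 0.00694 in limma), the 1 member called beside 11.2% of all genes (4.63% higher, 6.61% lower). Without control 48 h replicate 1 no member passed. The median difference there was 0.41, with 0.62 for the kinetochore motor CENPE and 0.61 for FOXM1 next to CENPF, and -0.34 for ECT2, -0.10 for CDC25B and 0.00 for PRC1 at the low end.

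**Figure D2:**
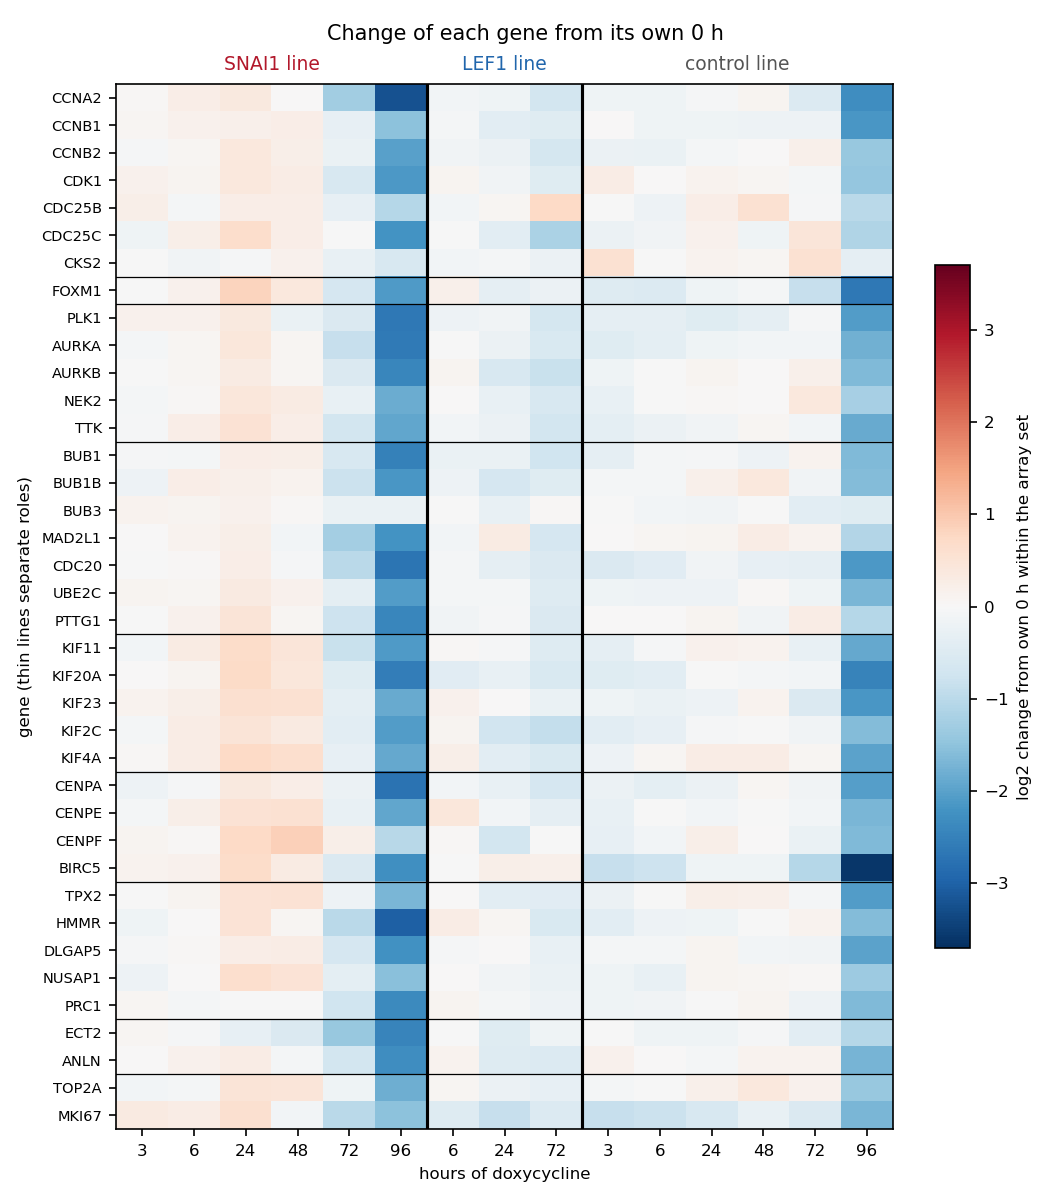
Each cell is the log2 change of 1 gene from its own 0 h at 1 time, computed within array set 1 (SNAI1 and control lines) or set 2 (LEF1 line), with genes grouped by role and MKI67 drawn also where it was not detected. The SNAI1 line columns at 24 and 48 h are mostly above 0 with ECT2 at -0.30 and -0.53, and both 96 h columns, in the SNAI1 and the control line, are below 0 for all 38 genes.

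Late in the course the genes fell across every role. At 72 and 96 h 35 of the 38 members were lower than at 0 h in the SNAI1 line, with a median change of -1.35 on the log2 scale, and all 38 changes were negative. Over all genes 35% were called, 16.9% lower and 18.1% higher, and the median change was 0.04. With bulk RNA, fewer cells in G2 and mitosis and less RNA per such cell cannot be told apart. Colon epithelium markers moved at the same times: 8 of 12 were lower, and their summed linear intensity was 9090.2 to 12661.3 on the 72 and 96 h arrays against 32677 and 34189.8 at 0 h. That sum was already at 11161.3 to 19002.8 on the 24 and 48 h arrays, where 0 members were called lower, and control arrays summed to 38757.6 and 40705.8 at 72 and 96 h against 35102.4 and 49771.1 at 0 h. Markers of other cell types did not move past the threshold (0 of 5 tested), with sums of 397.1 to 416.7 at 72 and 96 h against 383 and 412.1 at 0 h. The part of the epithelial marker change in the fall of the mitotic genes was not tested.

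Of the cyclins, CDK1 and its activators, 6 of 7 were lower. CCNA2 encodes cyclin A2, which acts in S phase and G2. It read 10.90 and 10.89 at 0 h, 10.93 at 3 h, 11.22 and 11.07 at 6 h, 11.24 at 24 h, 11.02 and 10.77 at 48 h, 9.60 at 72 h, and 7.53 and 7.82 at 96 h. Every array up to 48 h lay above the 72 h array, which lay above both 96 h arrays. CCNA2 changed by -2.26 (SE 0.32, fold 0.209, adjusted p = 0.000169 in limma). CDK1 changed by -1.36 (SE 0.35, adjusted p = 0.00962), CCNB2 by -1.13, CDC25C by -1.11, CCNB1 by -0.90 (SE 0.31, adjusted p = 0.0382) and CDC25B by -0.68. CCNB1 lost its call without either SNAI1 0 h array (adjusted p = 0.127 and 0.143) or without SNAI1 96 h replicate 1 (0.104). CKS2, a small CDK-binding protein, is the member whose probe has the highest mean (12.54) and read 12.40 at 72 h and 12.09 and 12.12 at 96 h, against 12.59 and 12.79 at 0 h. Its change of -0.44 (SE 0.22, adjusted p = 0.145) did not pass. FOXM1 fell by 1.35 (SE 0.32, adjusted p = 0.00527).

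All 5 mitotic kinases were lower. AURKA, the centrosomal Aurora kinase, read 9.92 at 72 h and 7.93 and 8.36 at 96 h, against 10.74 and 10.80 at 0 h. It fell by 1.74 (SE 0.21, fold 0.300, adjusted p = 4.58e-05 in limma), and a second AURKA probe fell by 1.71. PLK1, which drives mitotic entry and spindle assembly, fell by 1.59 (SE 0.34), AURKB, the kinase of the chromosomal passenger complex, by 1.47 (SE 0.23), the checkpoint kinase gene TTK by 1.30 (SE 0.26) and the centrosome-splitting kinase gene NEK2 by 1.06 (SE 0.20). The late arrays of these kinases did not overlap those at 0 h, which restates the call on the same arrays. The share of all genes without overlap is not given here.

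Of the checkpoint and anaphase genes 6 of 7 were lower. CDC20, the activator of the anaphase-promoting complex, read 11.43 at 72 h and 9.48 and 9.99 at 96 h, against 12.44 and 12.43 at 0 h, and fell by 1.86 (SE 0.25, fold 0.276, adjusted p = 0.000130 in limma). PTTG1 encodes securin, which holds separase inactive until anaphase. Its log2 intensity was 12.43 and 12.48 at 0 h, 12.45 at 3 h, 12.57 and 12.68 at 6 h, 12.93 at 24 h, 12.51 and 12.52 at 48 h, 11.69 at 72 h, and 9.79 and 10.31 at 96 h. PTTG1 changed by -1.59 (SE 0.20, adjusted p = 5.50e-05). The checkpoint genes BUB1, MAD2L1 and BUB1B fell by 1.54, 1.74 and 1.47, and UBE2C, the ubiquitin-conjugating enzyme of the anaphase-promoting complex, by 1.22. BUB3, which helps checkpoint proteins bind kinetochores, did not pass with the probe used (-0.24, SE 0.15, adjusted p = 0.254), and its other 2 probes detected on all 27 arrays disagreed: 1 was lower (-0.99, adjusted p = 0.00877 over all probes) and 1 was not called (0.20). A further BUB3 probe was detected on only 5 arrays.

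Of the motors, 5 of 5 were lower, with changes from -1.50 for KIF20A to -1.09 for KIF4A. KIF11 (-1.47), the motor that separates the poles, KIF2C (-1.22), a depolymerase, and KIF23 (-1.12), a motor of the central spindle, lay between them. A second KIF23 probe was detected on only 10 of 27 arrays and gives no check. Of the 21 other probes of the members, 14 were lower and 0 higher, with adjustment over all probes. The 21 include that KIF23 probe and the BUB3 probe detected on 5 arrays. The share of all probes called lower is not given here. Of the kinetochore and centromere genes 3 of 4 were lower, with changes of -1.48 for CENPA, the centromeric histone, -1.40 for the passenger protein gene BIRC5 and -1.10 for CENPE, a kinetochore motor. CENPF was the exception (-0.41, SE 0.18, adjusted p = 0.101). Spindle assembly factors were lower in 5 of 5. HMMR, which encodes a spindle pole and hyaluronan-binding protein, read 9.61 at 72 h and 7.19 and 8.02 at 96 h, against 10.58 and 10.65 at 0 h, a change of -2.01 (SE 0.28, fold 0.248, adjusted p = 0.000145 in limma). PRC1 fell by 1.55 (SE 0.17, adjusted p = 2.02e-05), DLGAP5 by 1.44, NUSAP1 by 0.95 and TPX2, the activator of Aurora A, by 0.94.

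Both cytokinesis genes were lower. ECT2 had the lowest adjusted p of all members in this comparison (-1.93, SE 0.18, fold 0.263, adjusted p = 5.25e-06 in limma). Its log2 intensity was 10.67 and 10.84 at 0 h, 10.81 at 3 h, 10.58 and 10.84 at 6 h, 10.45 at 24 h, 10.25 and 10.19 at 48 h, 9.35 at 72 h, and 8.19 and 8.40 at 96 h. Every array from 24 h on lay below every earlier array of the line. ANLN, the scaffold protein of the cleavage furrow, fell by 1.49 (SE 0.19, adjusted p = 7.60e-05). TOP2A fell by 0.98 (SE 0.23, adjusted p = 0.00553) and MKI67 by 1.25 (SE 0.34, adjusted p = 0.0122), a fitted value that includes undetected arrays. MKI67 was not detected on either 96 h array (4.52 and 4.42) and read 5.89 and 6.06 at 0 h, which makes it at least 2.65-fold lower at 96 h, set against the lowest detected signal of those arrays (adjusted p = 0.00637 for 96 h alone). Its probe has the lowest mean of the members (5.40).

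The fall was uneven in time. At 72 h alone, with 1 array, 6 members were lower beside 10.8% of all genes (22.4% called in either direction), with a median change of -0.53: ECT2 (-1.40, SE 0.23, adjusted p = 0.00102 in limma), CCNA2 (-1.29), CDC20 (-1.01), AURKA (-0.85), PTTG1 (-0.77) and PRC1 (-0.75). CDC25C was at -0.00 and CENPF at 0.22. At 96 h alone, with 2 arrays, 36 members were lower beside 16.2% of all genes (34% in either direction), with a median of -2.12. Those not called were CKS2 (-0.59) and BUB3 (-0.25), and the lowest were CCNA2 (-3.22), HMMR (-3.01) and CENPA (-2.74). All 38 members were lower at 96 h than at 72 h. Both single-time readings were added after the data were seen.

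The control line also fell at 96 h. Its median over the 38 genes was 10.17 and 9.40 at 0 h, 9.83 at 3 h, 9.76 and 9.88 at 6 h, 10.25 at 24 h, 10.21 at 48 h, 9.96 at 72 h and 7.90 at 96 h. Over 72 and 96 h together 0 members passed in the control line against its own 0 h, beside 0.0223% of all genes (0.0148% higher, 0.00742% lower) and 25 members at an unadjusted p under 0.05. The median change was -0.75, and 37 of 38 changes were negative. The largest falls were -1.88 for BIRC5, -1.48 for FOXM1 and -1.19 for CCNA2, and the highest values 0.13 for CKS2, -0.28 for CDC25B and -0.31 for BUB3. CDC20 was at -1.07, CCNB1 at -0.95, PLK1 at -0.87, AURKA at -0.76, CDK1 at -0.70 and TOP2A at -0.66. Without the 72 h array, which leaves 96 h alone, 16 members were lower in the control line beside 0.757% of all genes (1% in either direction), with a median of -1.57. They included BIRC5 (-3.16), FOXM1 (-2.37) and CDC20 (-1.97). At 72 h alone 0 passed, with 0% of all genes called and a median of 0.06. Within array set 1, 13 members were lower, and 1 was lower without control 0 h replicate 2 or without either 6 h array. The control line at 96 h is 1 array, and whether its fall belongs to the time or to that array cannot be told apart.

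**Figure D3:**
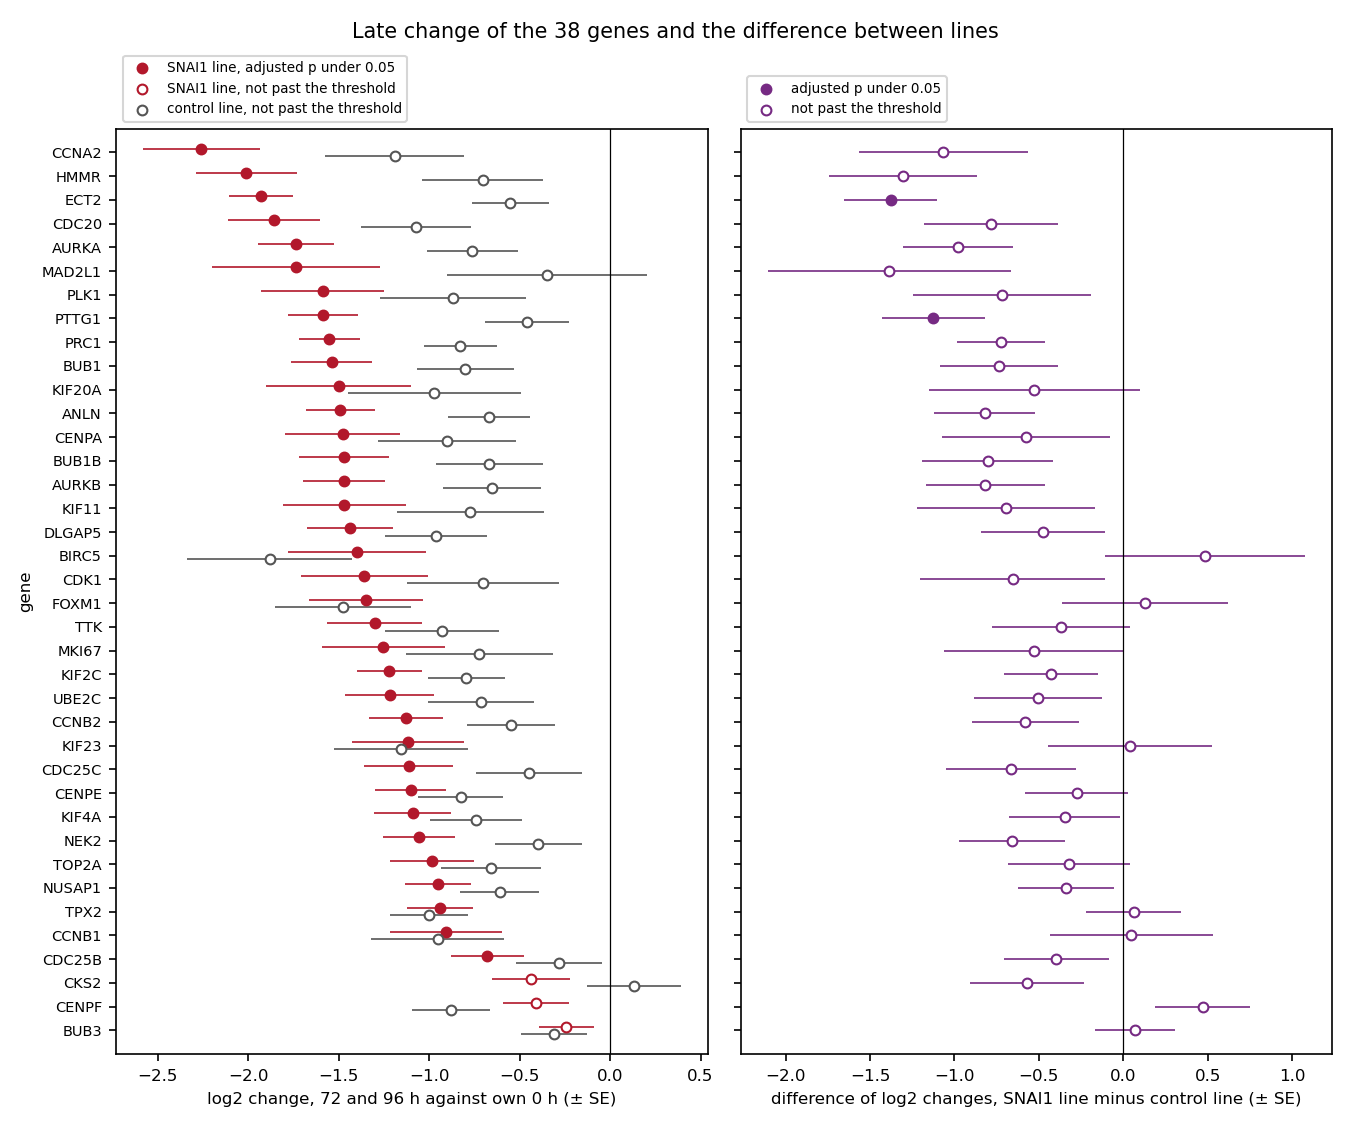
Left, log2 change at 72 and 96 h against the line's own 0 h for each gene in the SNAI1 line (red, above) and the control line (grey, below), and right, the difference of the changes; bars are standard errors, filled points have an adjusted p under 0.05 and MKI67 includes undetected 96 h arrays. In the SNAI1 line 35 genes are filled and in the control line none, and in the difference of changes ECT2 and PTTG1 are filled.

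Set against the control line at 72 and 96 h, 9 members differed in the SNAI1 line, 8 lower beside 16.5% of all genes and 1 higher beside 18.1% (34.5% in either direction). The median difference was -0.33. ECT2 (-1.22, SE 0.18, adjusted p = 0.000196 in limma), PTTG1 (-0.99), HMMR (-1.27), AURKA (-0.83), PRC1 (-0.58), BUB1 (-0.68), ANLN (-0.55) and NEK2 (-0.57) were lower. CENPF was higher (0.72, SE 0.18, adjusted p = 0.00863), with 8.80 at 72 h and 7.40 and 7.68 at 96 h in the SNAI1 line, against 8.15 and 6.75 in the control line. The other members did not pass: TOP2A differed by 0.01, KIF4A by 0.00, FOXM1 by 0.28, CCNB1 by 0.40, CDK1 by -0.55, PLK1 by -0.62 and CDC20 by -0.67. The count was 1 without the control 96 h array (ECT2), 5 without SNAI1 96 h replicate 1 and 16 within array set 1.

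When the change in the control line was subtracted from the change in the SNAI1 line, 2 of the 38 members were lower, beside 7.06% of all genes, with 7.07% higher and 14.1% in either direction. By this count the members do not stand out from all genes. The 2 called were ECT2 (-1.38, SE 0.28, fold 0.385, adjusted p = 0.00539 in limma) and PTTG1 (-1.13, SE 0.30, fold 0.458, adjusted p = 0.0270). In the control line ECT2 read 10.77 and 10.71 at 0 h, 10.76 at 3 h, 11.26 and 10.62 at 6 h, 10.61 at 24 h, 10.73 at 48 h, 10.39 at 72 h and 9.71 at 96 h. Its lowest control array, at 96 h, lay above the 72 h array of the SNAI1 line (9.35). PTTG1 in the control line read 12.25 and 12.02 at 0 h, 12.27 at 3 h, 11.77 and 12.28 at 6 h, 12.36 at 24 h, 12.12 at 48 h, 12.52 at 72 h and 11.21 at 96 h. A second PTTG1 probe gave -1.20 and did not pass (adjusted p = 0.184 over all probes).

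The median difference of changes was -0.57 over the members and 0.05 over all genes, and 31 of 38 were negative. HMMR (-1.31, adjusted p = 0.0686) and AURKA (-0.98, adjusted p = 0.0676) did not pass with the probes used, while a second HMMR probe did (-1.31, adjusted p = 0.00812 over all probes). CCNA2 was at -1.07, CDC20 at -0.78, PLK1 at -0.72, CDK1 at -0.66, TOP2A at -0.32, CCNB1 at 0.05, FOXM1 at 0.13, CENPF at 0.47 and BIRC5 at 0.48. The count was 0 without the control 96 h array, where ECT2 had an adjusted p of 0.0529. It was 1 without control 0 h replicate 1 or without either SNAI1 0 h array, and 4 without SNAI1 96 h replicate 2. With 72 h alone 0 passed, beside 8.17% of all genes.

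**Figure D4:**
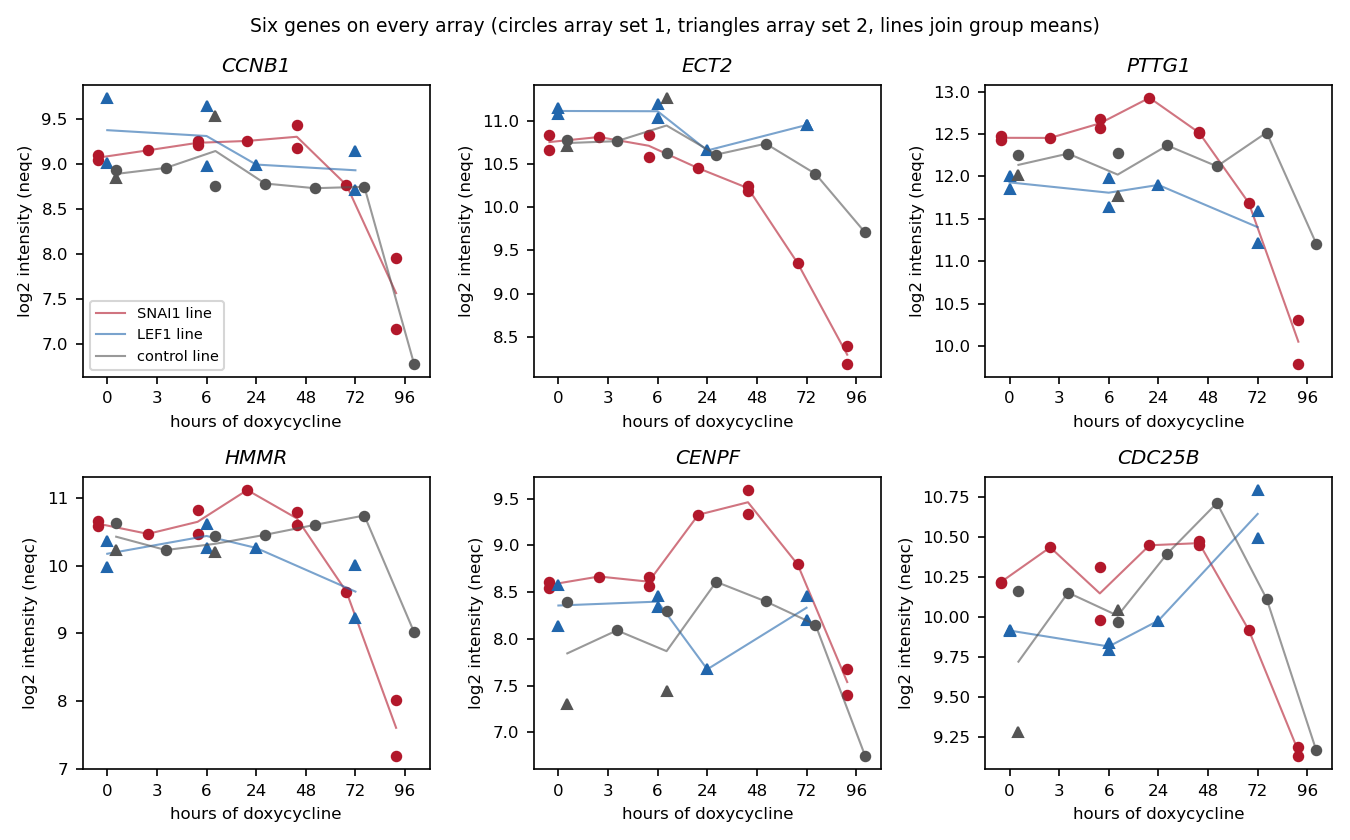
Log2 intensity of 6 genes on every array by hours of doxycycline (evenly spaced axis), with the SNAI1 line in red, the LEF1 line in blue and the control line in grey, circles for array set 1 and triangles for set 2. ECT2 reaches 8.19 and 8.40 at 96 h in the SNAI1 line, against 9.71 in the control line, while CCNB1 ends at 7.17 and 7.96 against 6.78.

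The LEF1 line was followed to 72 h. At 6 h 0 members passed against its own 0 h (0% of all genes, 0 at an unadjusted p under 0.05), with -0.41 for KIF20A, -0.24 for BUB1 and -0.19 for PLK1, and 0.43 for CENPE, 0.26 for HMMR and 0.20 for KIF4A at the ends. At 72 h 4 members passed, 3 lower beside 5.43% of all genes and 1 higher beside 7.35% (12.8% in either direction). The median change was -0.48, with 35 of 38 changes negative. Of the 12 colon epithelium markers 5 were lower at the same time, with sums of 32404.1 and 32582.7 at 72 h against 41709.9 and 42934.8 at 0 h, and their part in these changes was not tested. KIF2C, the depolymerase, read 7.86 and 7.55 at 72 h, against 8.50 and 8.67 at 0 h (-0.88, SE 0.19, adjusted p = 0.00995 in limma). CDC25C, the phosphatase that activates CDK1, read 7.41 and 6.83 at 72 h, against 8.54 and 8.06 at 0 h (-1.18, SE 0.26, adjusted p = 0.0112). AURKB read 9.22 and 8.90 at 72 h, against 10.16 and 9.63 at 0 h (-0.83, SE 0.24, adjusted p = 0.0412). In none of the 3 did the 72 h arrays reach those at 0 h, but the genes were picked as lower on these same arrays.

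CDC25B, the CDC25 phosphatase that acts first at the centrosome, went the other way. It read 9.91 and 9.92 at 0 h, 9.79 and 9.83 at 6 h, 9.98 at 24 h, and 10.49 and 10.79 at 72 h (0.73, SE 0.21, adjusted p = 0.0422 in limma). In the SNAI1 line the same probe was at 9.92 at 72 h and 9.19 and 9.13 at 96 h, against 10.21 and 10.22 at 0 h. The control line, with 1 array against 1, also rose in places: by 0.76 at 6 h within set 2 and by 0.55 at 48 h within set 1. Its other changes within set 1 lay between -0.99 at 96 h and 0.24 at 24 h. CCNB1 changed by -0.45, CDK1 by -0.45, PLK1 by -0.66, AURKA by -0.55, CDC20 by -0.54, TOP2A by -0.31 and FOXM1 by -0.21 in the LEF1 line at 72 h, and none passed. ECT2 read 10.94 and 10.96 at 72 h, against 11.15 and 11.07 at 0 h (-0.16, adjusted p = 0.653), and CENPF was at -0.02.

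Arrays of the LEF1 line with the same replicate number deviated together (correlations of 0.474 to 0.526 over 3 pairs), and with the replicate number as a block in that line 10 members passed, 9 lower beside 8.71% of all genes and 1 higher beside 10.9% (19.6% in either direction). These are CDC25C, KIF2C, AURKB, TTK, BUB1, MAD2L1, CCNB2, NEK2 and CCNA2 among the lower and CDC25B as the higher. The members' median was 9.52 and 9.08 on replicates 1 and 2 at 72 h, against 9.96 and 9.68 at 0 h. The count without the block was 0 within array set 2 alone and 0 without LEF1 72 h replicate 2. It was 1 without LEF1 0 h replicate 1, and 2 without LEF1 0 h replicate 2, LEF1 72 h replicate 1, either SNAI1 0 h array or either SNAI1 48 h array.

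Against the control line the LEF1 line differed in 0 members at 0 h (0% of all genes, 2 at an unadjusted p under 0.05) and in 0 at 6 h (0.052% of all genes, 0.0148% higher and 0.0371% lower, 3 at an unadjusted p under 0.05). At 0 h CENPF (1.00), FOXM1 (0.73) and KIF4A (0.63) were the highest and MAD2L1 (-0.32), CDK1 (-0.17) and PLK1 (-0.12) the lowest. At 6 h CENPF (1.01), FOXM1 (0.87) and KIF2C (0.52) were the highest and MAD2L1 (-0.76), CCNA2 (-0.48) and KIF20A (-0.37) the lowest. At 72 h 1 member differed, beside 7.84% of all genes, 4.31% higher and 3.53% lower: CENPF (1.15, SE 0.31, adjusted p = 0.0397 in limma). Its difference at 0 h had the same sign, and it passed in 14 of 26 fits that each left out 1 array, and 0 members were called without either control 0 h array, either SNAI1 0 h array, either SNAI1 48 h array or LEF1 72 h replicate 2. Without the array set term 0 members were higher and 6 lower. For the change from 0 h at 72 h minus that of the control line, 0 members passed (3.89% of all genes called, 2.13% higher and 1.76% lower, 7 at an unadjusted p under 0.05). The lowest were CDC25C (-1.51), AURKB (-1.09) and NEK2 (-0.99) and the highest BIRC5 (0.80), CDC25B (0.54) and FOXM1 (0.38). With the replicate block CDC25C passed there (adjusted p = 0.0271), beside 7.51% of all genes.

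The change at 72 h in the SNAI1 line minus that in the LEF1 line was past the threshold for 1 member, beside 3.84% of all genes called lower, 3.32% higher and 7.16% in either direction. ECT2 differed by -1.24 (SE 0.30, fold 0.424, adjusted p = 0.0276 in limma). It read 9.35 at 72 h in the SNAI1 line, whose 0 h arrays were at 10.67 and 10.84, and 10.94 and 10.96 in the LEF1 line, whose 0 h arrays were at 11.15 and 11.07. Both 72 h arrays of the LEF1 line lay just below their own 0 h arrays. They also lay above the 72 h array of the SNAI1 line, but the lines are in different array sets and differed the same way at 0 h. The median difference over the members was -0.12. CDC25B (-1.03, adjusted p = 0.0958) and CDC25C (1.18, adjusted p = 0.121) did not pass, and CDC25C did with the replicate block (adjusted p = 0.0457), which calls 2 members beside 10.9% of all genes. CCNB1 was at 0.14, CDK1 at -0.13, PLK1 at 0.14, AURKA at -0.30, CDC20 at -0.47, TOP2A at 0.14 and FOXM1 at -0.40. ECT2 lost its call without either SNAI1 0 h array, LEF1 0 h replicate 2 or either LEF1 72 h array, where 0 members passed, and 2 members passed without either control 0 h or either control 6 h array. The SNAI1 line at 72 h is 1 array.

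Other genes of the pathway give a scale for the members. Of 59 tested G2/M genes that are no members, 52 were lower at 72 and 96 h in the SNAI1 line, beside 16.9% of all genes. Their median there was -1.35. At 72 h in the LEF1 line 9 of the 59 were lower, beside 5.43% of all genes, with a median of -0.48. In the difference of changes between the SNAI1 and control lines 4 of the 59 were lower, beside 7.06% of all genes, and 1 higher, beside 7.07%. This list therefore does not stand out there. The lower ones were the centromere gene CENPI (-1.65, adjusted p = 0.00205 in limma), the spindle gene CKAP2L (-1.38), the condensin gene NCAPD2 (-1.06) and the kinetochore gene SPC24 (-1.11). The higher one was the condensin gene NCAPH (1.30). Of 28 S phase genes 25 were lower at 72 and 96 h in the SNAI1 line, beside the same 16.9%, with a median of -1.52. In the control line 0 of the 28 were lower, beside 0.00742% of all genes. The median there was -1.24, with 23 at an unadjusted p under 0.05 in limma. The median intensity of the 28 S phase genes on single arrays was 8.24 at 72 h and 8.24 and 8.28 at 96 h in the SNAI1 line, against 10.06 and 9.87 at 0 h. The 38 mitotic genes had medians of 9.56 at 72 h and 7.49 and 7.99 at 96 h. A difference between the lists was not tested. At 72 h the change in the SNAI1 line minus that in the LEF1 line was lower for 8 of the 28, beside 3.84% of all genes. The median was -1.27.

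The anaphase-promoting complex acts on many of the proteins above, and 13 genes of it or its partners FZR1 and UBE2S were tested. At 72 and 96 h in the SNAI1 line 2 were higher and 3 lower, beside 18.1% and 16.9% of all genes. The median was -0.01. CDC16 (0.55) and ANAPC13 (0.79) rose and ANAPC1 (-1.20), ANAPC5 (-0.81) and ANAPC4 (-0.76) fell. Of 13 genes of the MuvB, B-MYB, E2F and NF-Y regulators 2 were higher and 4 lower beside the same shares, with a median of -0.48. NFYA (0.90) and NFYC (0.56), which encode subunits of the factor that binds CCAAT, rose, and RBL1 (-0.84), TFDP1 (-1.06), E2F4 (-0.78) and RBBP4 (-0.81), which encode parts of the DREAM complex, fell. Against the control line at 72 and 96 h 4 of these 13 were higher, beside 18.1% of all genes, and 0 lower, beside 16.5%. The median was 0.22. The higher ones were NFYA (1.19), NFYC (0.64) and the MuvB genes LIN52 (0.80) and LIN54 (0.65). RBL1 (-0.18), TFDP1 (-0.38), E2F4 (-0.36) and RBBP4 (0.22) did not pass there. In the difference of changes 0 of the 13 passed, beside 14.1% of all genes, with 2 at an unadjusted p under 0.05 in limma. RBL1, the p107 gene, also fell in the control line over 72 and 96 h (-1.30, adjusted p = 0.0437), the 1 regulator called there.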

How the data were processed

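Per the file headers and the values, the authors deposited log2 probe intensities of Illumina bead arrays that were not normalized between arrays, each with a detection p-value, and a log2 matrix quantile normalized over the 27 arrays. Per the labels' protocols, total RNA was turned into biotinylated cRNA. The scanner software and its settings: not given in the sources used here. Intensities were returned to the linear scale, background corrected with normexp (negative controls inferred from the detection p-value, offset 16) and quantile normalized, as neqc does, in limma 3.58.1 (R 4.3.3). The table lists 47323 probes. Values were missing or infinite for 32, which were left out. The platform annotation gives 1 gene for 30113, several for 8 and no gene for 17202. A probe passed if 2 or more arrays had its detection p under 0.01 (25629 probes). Each gene was read by the probe with the highest mean in the deposited matrix among all its probes. A gene was left out if that probe did not pass, even where another did, which left 13471 genes. Depth has no meaning for arrays, and the number of arrays limits the precision.

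A limma model with 18 group means and a term for array set (8 residual and 4.20 prior degrees of freedom) was fitted to all genes, with Benjamini-Hochberg adjustment over the 13471 genes of each of 18 comparisons, at 5%. Times within a window were weighted equally. Groups of 1 array (9) borrow the spread of those of 2 (9). Correlations of deviations between same-numbered arrays were 0.474 to 0.526 in the LEF1 line, so the numbers pair its arrays, and -0.0146 to 0.129 in the SNAI1 line, where they do not. One LEF1 line array titled 6 h carries 0 h in its time field and was taken as 6 h. The members and gene lists were chosen with earlier results of these data known. Genes are named if past the threshold (at most 8 per comparison, by lowest adjusted p), else as the 3 highest and 3 lowest, with CCNB1, CDK1, PLK1, AURKA, CDC20, TOP2A, FOXM1 and MKI67 throughout (MKI67 only where detected) and the members with the highest and lowest mean; other genes given as values were chosen after their values were seen. The steps were tested on simulated data. Alternatives were the deposited matrix, offset 50, no array set term, each set alone, a replicate block, no detection filter, the mean of all probes, a trended robust prior, each array left out, and, added after the data were seen, single times and a replicate block in the LEF1 line.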

Additional observations from a re-analysis of the deposited data

Results flagged for a closer look

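ECT2 and PTTG1 changed differently in the SNAI1 and control lines at 72 and 96 h (difference of log2 changes -1.38 and -1.13, adjusted p = 0.00539 and 0.0270 in limma). Beside 7.06% of all genes called lower there, the members do not stand out by count. The control line at 96 h is 1 array, and neither call held without it. A second PTTG1 probe did not pass. ECT2 also changed differently at 72 h in the SNAI1 and LEF1 lines (-1.24, adjusted p = 0.0276). No group holds 4 or more arrays, so no array was tested as an outlier of its group.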

How the results depend on the processing

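Among 54 comparisons of single members past the threshold, 1829 of 1985 values under other settings kept their direction and side, 156 kept the direction only and 0 turned round. These results were chosen for passing the threshold. Leaving out an array of another line often cannot alter the size of a change, so the tally is not a test of stability. Numbers of members called moved by over 1.5 times as follows, with the cause not tested. In the SNAI1 line at 24 and 48 h the main count of 1 became 5 with the deposited matrix, 3 with offset 50, 0 without the array set term, 2 within set 1, 2 with the trended prior and 0 at 24 h alone (single arrays left out: 0 to 2), and against the control line 4, 2, 0, 2 and 2 under the first 5 of these (0 to 1). In the SNAI1 line at 72 and 96 h the count of 35 became 6 at 72 h alone and lay between 26 and 36 with single arrays left out. Against the control line, 9 became 16 within set 1 and 1 at 72 h alone (1 to 11). The difference of those changes, 2, became 5 with the deposited matrix, offset 50 or the trended prior, 4 without the set term or within set 1 and 0 at 72 h alone (0 to 4). In the control line at 72 and 96 h 0 became 13 within set 1, 1 with the replicate block over all lines and 16 at 96 h alone (0 to 16). In the LEF1 line at 72 h 4 became 7 with the deposited matrix or the trended prior, 1 without the set term, 0 within set 2 and 10 with its replicate block (0 to 5). Its difference from the control line at 72 h, 1, became 2 with the deposited matrix, offset 50, the mean of all probes or the trended prior and 6 without the set term (0 to 2), and the difference of changes, 0, became 1 with the deposited matrix, offset 50 or the replicate block. The SNAI1 minus LEF1 change at 72 h, 1, became 2 with the deposited matrix, the trended prior or the replicate block and 0 without the set term (0 to 2). The comparisons at 0 h and at 3 and 6 h stayed at 0 throughout. The replicate block changed no other count by over 1.5 times. Comparisons of the LEF1 line with the control line at 72 h have no value within 1 set.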
